A study of Mus musculus with 24 samples.

Results

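The genes described here are *Fkbp1a*, *Fkbp1b*, *Fkbp2*, *Fkbp3*, *Fkbp4*, *Fkbp8* and *Fkbp9*, which encode FK506-binding proteins other than FKBP51, and *Ppid*, which encodes the cyclophilin Cyp40. They were chosen by name as genes that could compensate for a loss of *Fkbp5*, and they are 8 of the 46983 genes in the count table. The RNA came from hippocampal punches, dorsal and ventral, of 24 female C57BL/6 mice, and each of the 4 groups held 6 mice. Mice of all groups carried floxed *Fkbp5* alleles. *Fkbp5*lox/lox mice served as wild-type littermates, and *Fkbp5*Nex mice also carried Cre recombinase in the *Neurod6* (*Nex*) locus. Nex-Cre is active in glutamatergic neurons of the forebrain from embryonic life and spares the granule cells of the dentate gyrus, so that interneurons, glia and dentate granule cells keep *Fkbp5*. Within each genotype, one group was raised under early life stress (ELS), given as limited bedding and nesting material from postnatal day 2 to 9, and the other under control conditions, and behavioural testing took place at 6 months of age.

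FKBPs and cyclophilins are immunophilins, proteins that bind immunosuppressive drugs and catalyse the cis-trans rotation of the bond before proline. FKBP51, encoded by *Fkbp5*, sits on Hsp90 in the glucocorticoid receptor complex and lowers the receptor's affinity for hormone, while FKBP52, encoded by *Fkbp4*, competes for the same Hsp90 site and favours transport of the receptor to the nucleus. Cyp40 is a further Hsp90 partner that docks through the same kind of tetratricopeptide repeat. The question behind the comparison is whether transcripts of these relatives moved in mice that lack *Fkbp5* in pyramidal neurons.

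Total counts ranged from 18347283 to 26555623 per mouse, and all 8 genes were among the 16209 genes that passed the filter on low counts. *Fkbp5* itself, the check on the genotype labels, lay at 47.7 to 63.4 CPM (counts scaled to a TMM-adjusted total of 1000000 per mouse) in the 12 *Fkbp5*lox/lox mice and at 8.71 to 26.5 CPM in the 12 *Fkbp5*Nex mice. Its log2 fold change was -2.03 (95% interval -2.22 to -1.84, edgeR quasi-likelihood test, adjusted p = 2.81e-12). The highest *Fkbp5* levels among *Fkbp5*Nex mice were those of control mouse 12 (26.5 CPM) and ELS mouse 60 (23.1 CPM), which also had the highest summed dentate granule markers of their groups (472 and 345 CPM). No marker of CA pyramidal, dentate granule or interneuron identity was at 0 in any mouse. Of 6 pyramidal markers, 3 had higher and 3 lower estimates in *Fkbp5*Nex (median log2 fold change -0.06), and *Neurod6*, the Cre locus, passed the test. Their summed medians were 744 and 701 CPM in *Fkbp5*lox/lox and 602 and 626 CPM in *Fkbp5*Nex control and ELS mice. These sums include *Neurod6*, whose mean was 257 CPM (SD 64.6) in *Fkbp5*lox/lox and 142 CPM (SD 47) in *Fkbp5*Nex mice. Of 5 interneuron markers, 2 had higher and 3 lower estimates (median -0.03), with 0 called. The 7 choroid plexus markers summed to between 18.7 and 4592 CPM per mouse, with group medians of 895 and 538 CPM in *Fkbp5*lox/lox and 55.9 and 147 CPM in *Fkbp5*Nex control and ELS mice, and *Folr1* and *Kcnj13* were at 0 in some mice. Of the 4 tested, all had lower estimates in *Fkbp5*Nex (median log2 fold change -1.22) and *Ttr* passed the test. All 5 dentate granule markers had lower estimates in *Fkbp5*Nex (median log2 fold change -0.50), and *Prox1* and *Dsp* passed. Estimates were higher in *Fkbp5*Nex for 5 of 5 astrocyte (median 0.19), 6 of 6 oligodendrocyte (0.14), 5 of 5 microglia (0.07), 5 of 5 endothelial (0.13) and 8 of 9 thalamus markers (0.30), with 0 called. *Fkbp5*Nex control mice 52 and 12 stood apart from the rest. They had the highest level of all 24 mice in 16.9% and 12.6% of the tested genes, against 8.54% for the next mouse, and the highest summed astrocyte markers, 2861 and 3623 CPM against 2012 CPM for the next mouse. Punches are mixtures, and in such bulk tissue a smaller share of cells that use a gene and less RNA per cell cannot be told apart.

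Per exon length, *Fkbp1a* was by far the most abundant of the 8 transcripts. *Fkbp1a* encodes FKBP12, the cytosolic protein through which FK506 and rapamycin act and a partner of ryanodine and TGF-beta receptors. It reached 180 ± 15.7 RPKM (reads per kilobase of exon, scaled to library size as CPM, SD, n = 24) and made up 47.3 ± 1.21% of the RPKM summed over the 8 genes and *Fkbp5*. *Fkbp8*, which encodes the membrane-anchored FKBP38 of mitochondria, followed at 62.3 ± 5.51 RPKM, and *Fkbp4* at 34.6 ± 3.01 RPKM. These 3 levels ordered the same way in 24 of 24 mice, and the ranges of neighbours did not overlap. *Fkbp2*, whose product resides in the endoplasmic reticulum, lay at 29.4 ± 3.31 RPKM, below *Fkbp4* in 24 of 24 mice, although the 2 ranges overlapped. *Fkbp1b*, which encodes the FKBP12.6 paralogue of FKBP12, lay at 25.7 ± 4.01 RPKM and *Ppid* at 24.2 ± 1.17 RPKM. The order of these was not clear, since *Fkbp2* exceeded *Fkbp1b* in 20 of 24 mice and *Fkbp1b* exceeded *Ppid* in 15 of 24. *Fkbp9*, which encodes a further endoplasmic reticulum FKBP, and *Fkbp3*, which encodes the nuclear FKBP25, were the least abundant with 11.8 ± 1.61 and 8.32 ± 0.696 RPKM. Both means were above that of *Fkbp5*, which was 5.66 ± 0.628 RPKM in *Fkbp5*lox/lox control mice and 1.49 ± 0.675 RPKM in *Fkbp5*Nex control mice. This order depends on the exon lengths, which join all annotated exons of a gene, from 1021 bases for *Fkbp1b* to 9468 for *Fkbp5*. By CPM alone, *Fkbp3* (65.3 ± 5.47) lay above *Fkbp2* (48.3 ± 5.42), *Fkbp9* (39.2 ± 5.32) and *Fkbp1b* (26.2 ± 4.1). In *Fkbp5*lox/lox mice *Fkbp5* averaged 56.5 ± 5.27 CPM, also above *Fkbp2*, *Fkbp9* and *Fkbp1b*.

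**Figure D1:**
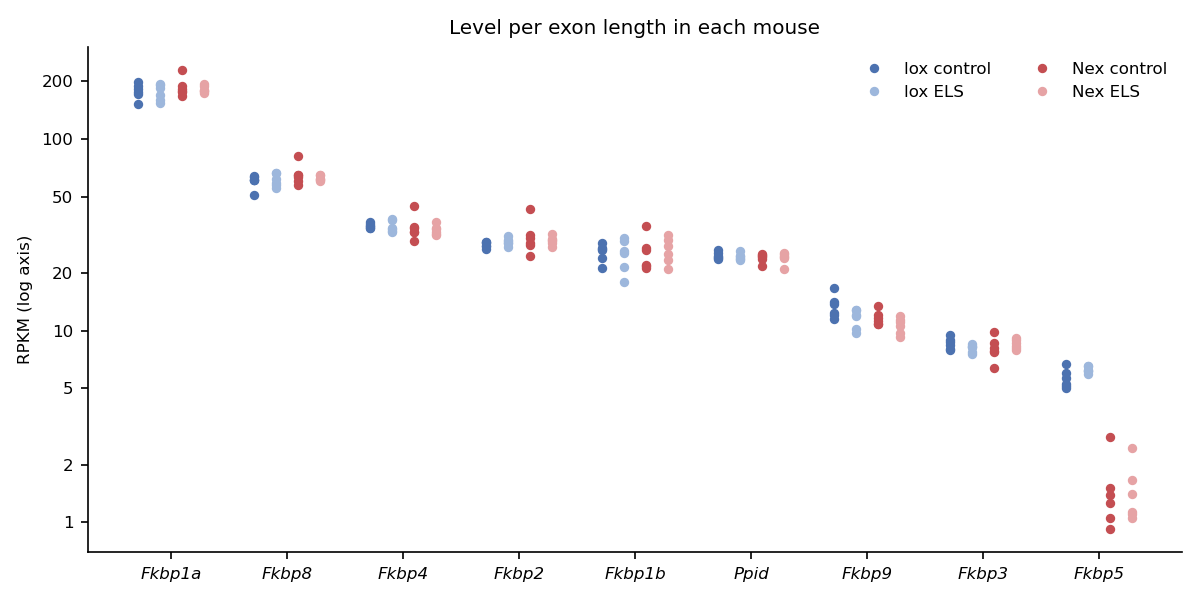
Level per exon length (RPKM, log axis) of the 8 genes and *Fkbp5* in each mouse, 1 point per mouse and 1 colour per group (lox, *Fkbp5*lox/lox; Nex, *Fkbp5*Nex). The points of the 4 groups overlap for each of the 8 genes, from *Fkbp1a* with a mean of 180 RPKM to *Fkbp3* with 8.32 RPKM, while *Fkbp5* drops in both *Fkbp5*Nex groups.

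*Fkbp4* and *Fkbp5* encode proteins that compete on Hsp90, and their ratio was compared. The ratio of *Fkbp4* to *Fkbp5* per exon length was 5.94 ± 0.676 in the 12 *Fkbp5*lox/lox mice, with a range of 5.13 to 6.81, and 25.6 ± 7.75 in the 12 *Fkbp5*Nex mice, with a range of 12.4 to 35.6. The 2 ranges did not overlap. *Fkbp5*, the lower term of the ratio, is the deleted gene, so a difference in the ratio was fixed by the design. The separation therefore says nothing of *Fkbp4*. The size of the ratio rests on the exon lengths used. Without them, *Fkbp4* and *Fkbp5* averaged 98.1 ± 5.13 and 56.5 ± 5.27 CPM in *Fkbp5*lox/lox mice. In *Fkbp5*Nex mice they averaged 95.3 ± 10.8 and 14 ± 5.47 CPM.

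None of the 8 genes passed the test for genotype. In the comparison of *Fkbp5*Nex with *Fkbp5*lox/lox over both rearing conditions, 0 of 8 were called at a false discovery rate (FDR) of 2% by edgeR and 0 by DESeq2, where edgeR called 22 of all 16209 genes tested (0.136%) and DESeq2 called 66. At an unadjusted p below 0.05 there was 1 of 8, *Fkbp9*, against 11.4% of all genes tested. Of the estimates, 3 were above 0 and 5 below, and their median log2 fold change was -0.037 against -0.002 over all genes. The upper ends of the 95% intervals, each taken for 1 gene, ran from -4.61% for *Fkbp9* to 6.43% for *Fkbp8*, expressed as a change of the level in *Fkbp5*Nex.

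*Fkbp4* and *Ppid*, which encode the Hsp90 partners most like FKBP51, had estimates below 0 that did not pass. *Fkbp4* ranged from 95.4 to 103 CPM (median 98.1) in *Fkbp5*lox/lox control mice, from 91.0 to 107 CPM (median 94.7) in *Fkbp5*lox/lox ELS mice, from 81.5 to 125 CPM (median 93.6) in *Fkbp5*Nex control mice and from 88.5 to 103 CPM (median 92.7) in *Fkbp5*Nex ELS mice. Of the 12 *Fkbp5*Nex mice, 10 lay below the *Fkbp5*lox/lox mean and the highest of all 24 was *Fkbp5*Nex control mouse 52, so the groups overlapped. The log2 fold change for genotype was -0.05 (95% interval -0.14 to 0.03, adjusted p = 0.634), a fitted change of -3.72% with an interval of -9.14% to 2.03%. *Ppid* was the steadiest of the 8, with a coefficient of variation of 4.83% over all 24 mice. It lay between 110 and 122 CPM (median 113) in *Fkbp5*lox/lox control, 108 and 120 CPM (median 112) in *Fkbp5*lox/lox ELS, 101 and 117 CPM (median 113) in *Fkbp5*Nex control and 97.1 and 118 CPM (median 112) in *Fkbp5*Nex ELS mice. All 4 groups overlapped around nearly the same median. Its log2 fold change for genotype was -0.04 (95% interval -0.10 to 0.02, adjusted p = 0.582).

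*Fkbp8*, the third of these genes whose product carries tetratricopeptide repeats, had the largest estimate above 0. It ranged from 230 to 291 CPM (median 277) in *Fkbp5*lox/lox control, 252 to 301 CPM (median 273) in *Fkbp5*lox/lox ELS, 260 to 370 CPM (median 290) in *Fkbp5*Nex control and 274 to 294 CPM (median 280) in *Fkbp5*Nex ELS mice. The lowest mouse was *Fkbp5*lox/lox control mouse 44 and the highest *Fkbp5*Nex control mouse 52, and the ranges in between were shared. The log2 fold change was 0.04 (95% interval -0.005 to 0.09, adjusted p = 0.493). *Fkbp8* shares 224 exonic bases with *Kxd1* on the opposite strand (GRCm38, chromosome 8, 70527724 to 70535328, plus strand), and the strand setting of the counting was not given in the sources used here, so its value is uncertain to that extent.

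Neither gene of the FKBP12 pair passed. *Fkbp1a* lay between 588 and 760 CPM in *Fkbp5*lox/lox control (median 691), 595 and 742 CPM in *Fkbp5*lox/lox ELS (median 681), 643 and 881 CPM in *Fkbp5*Nex control (median 691) and 666 and 741 CPM in *Fkbp5*Nex ELS mice (median 690). Its log2 fold change for genotype was 0.02 (95% interval -0.03 to 0.07, adjusted p = 0.748). *Fkbp1b* varied most between mice of the 8, with a coefficient of variation of 15.6%, and ranged from 18.4 CPM in *Fkbp5*lox/lox ELS mouse 8 to 35.7 CPM in *Fkbp5*Nex control mouse 52. Group means were 26.2 ± 2.65, 25.7 ± 4.88, 26.1 ± 5.35 and 27.0 ± 4.09 CPM (SD, n = 6), the first 2 in *Fkbp5*lox/lox mice (control, then ELS) and the last 2 in *Fkbp5*Nex mice in the same order. The genotype estimate of *Fkbp1b*, -0.04 on the log2 scale, had the widest interval of the 8 genes (-0.16 to 0.08, adjusted p = 0.838). Without *Fkbp5*Nex control mice 12 and 52 it was -0.194 (unadjusted p = 0.0341, adjusted p = 0.753 in edgeR's test), an alternative chosen after seeing the data.

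Of the remaining genes of the endoplasmic reticulum and nucleus, *Fkbp2* and *Fkbp3* had small estimates for genotype. *Fkbp2* averaged 47.0 ± 1.88 CPM in the 12 *Fkbp5*lox/lox mice and 49.5 ± 7.36 CPM in the 12 *Fkbp5*Nex mice, where *Fkbp5*Nex control mouse 52 reached 70.4 CPM. Its log2 fold change was 0.006 (95% interval -0.06 to 0.07, adjusted p = 0.962). *Fkbp3* averaged 65.4 ± 4.21 and 65.3 ± 6.69 CPM, and its log2 fold change was -0.04 (95% interval -0.12 to 0.05, adjusted p = 0.774). *Fkbp3* shares 599 exonic bases with *Prpf39* on the other strand (chromosome 12, 65062424 to 65074007, minus strand), with the same uncertainty as for *Fkbp8*.

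**Figure D2:**
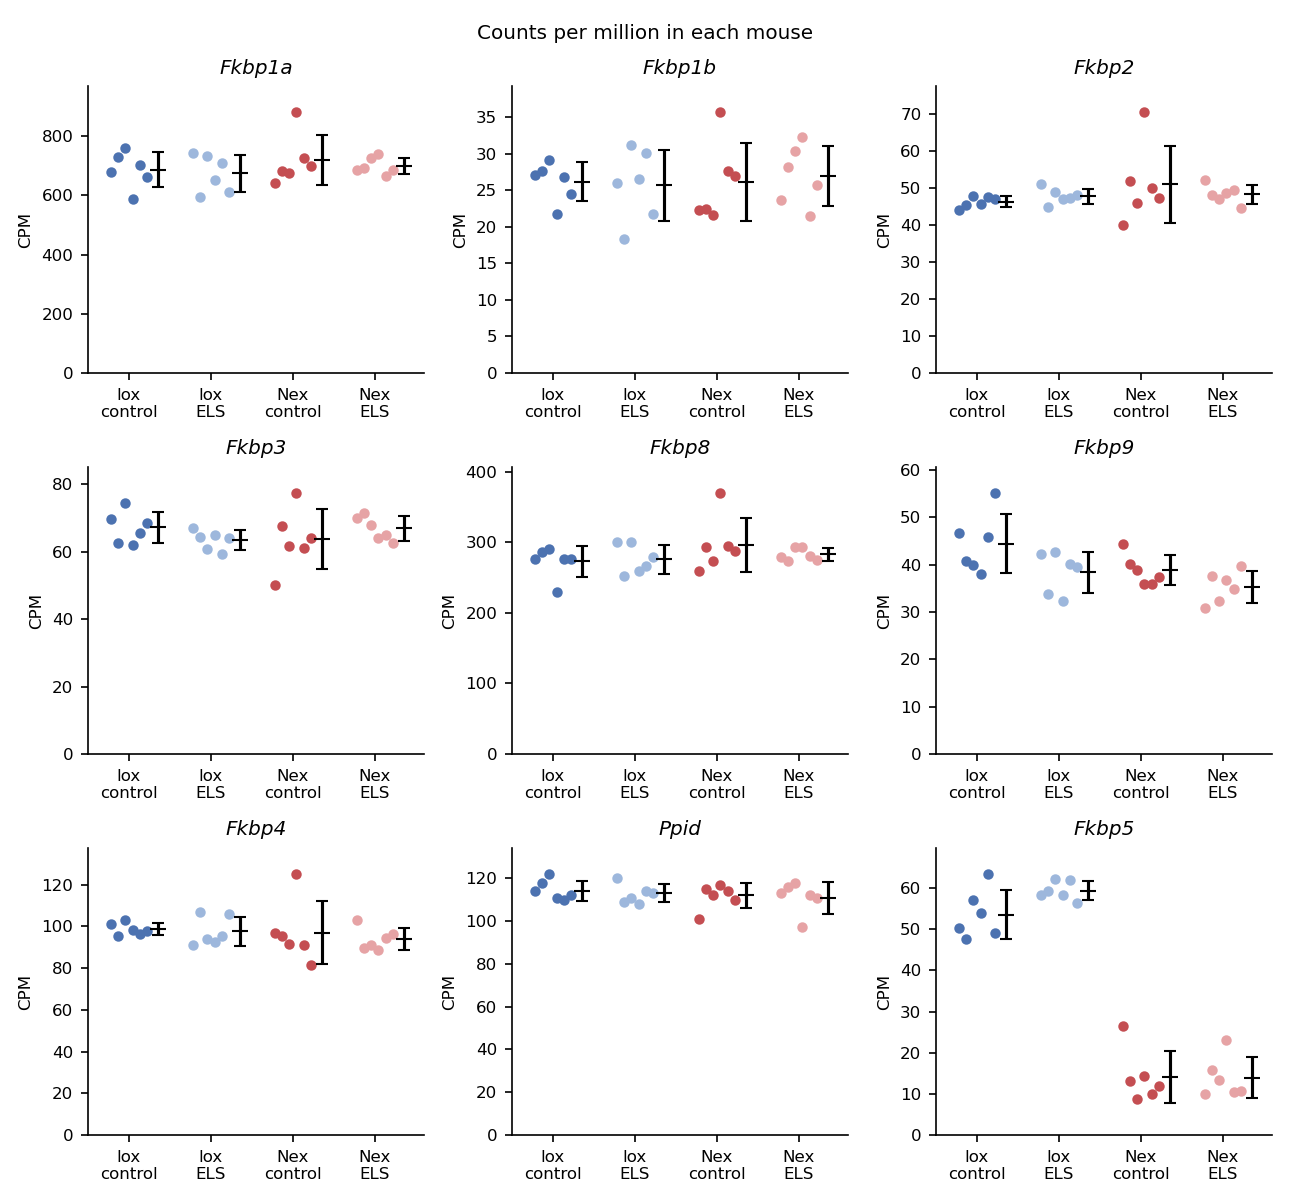
CPM (linear axes from 0) of the 8 genes and *Fkbp5* in each mouse by group, with the group mean and SD (n = 6) as a bar beside the points. The 4 groups overlap in every panel except that of *Fkbp5*, and *Fkbp5*Nex control mouse 52 is the highest point for *Fkbp1a*, *Fkbp1b*, *Fkbp2*, *Fkbp3*, *Fkbp4* and *Fkbp8*.

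*Fkbp9* had the estimate farthest from 0, and it was below 0. It ranged from 38.1 to 55.1 CPM (median 43.3) in *Fkbp5*lox/lox control, 32.4 to 42.6 CPM (median 39.8) in *Fkbp5*lox/lox ELS, 36.0 to 44.3 CPM (median 38.0) in *Fkbp5*Nex control and 30.8 to 39.7 CPM (median 35.8) in *Fkbp5*Nex ELS mice. Of the 12 *Fkbp5*Nex mice, 11 lay below the *Fkbp5*lox/lox mean of 41.4 CPM, but only 2 lay below the lowest *Fkbp5*lox/lox mouse. The log2 fold change was -0.16 (SE 0.05, 95% interval -0.26 to -0.07), with an unadjusted p of 0.00179 and an adjusted p of 0.148 in edgeR's test, which does not pass. By unadjusted p it ranked 196 among the 16209 genes. DESeq2 gave -0.164 with an adjusted p of 0.077. With single mice left out, the estimate stayed between -0.204 and -0.144 and its adjusted p between 0.0356, without *Fkbp5*Nex ELS mouse 66, and 0.364, without *Fkbp5*lox/lox control mouse 44. It depended more on the filter on low counts, with -0.105 under filterByExpr (unadjusted p = 0.0535, adjusted p = 0.456 in edgeR's test) and -0.097 with no filter (unadjusted p = 0.0749, adjusted p = 0.547). Without *Fkbp5*Nex control mice 12 and 52 it was -0.159 (adjusted p = 0.777).

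*Fkbp9* was also set beside its place on the chromosome and beside the choroid plexus markers. The gene lies on chromosome 6 (56832059 to 56879358, plus strand), 1.15 Mb from *Neurod6*, the locus that holds the Cre allele. *Neurod6* itself was lower in *Fkbp5*Nex, at 142 ± 47.0 against 257 ± 64.6 CPM (log2 fold change -0.90, adjusted p = 0.00939). Of 30 other tested genes within 2 Mb of *Neurod6*, a window set after the values were seen and with *Fkbp9* among them, 8 had lower and 5 higher estimates at an unadjusted p below 0.05. These are 26.7% and 16.7% of the 30, against 6.51% and 4.89% of all tested genes, so both directions were more frequent there. By sign alone 13 estimates were lower and 17 higher, with a median of 0.019 against -0.002 over all genes. One of the 30 passed the test, a gene listed only by the clone name RP23-287D23.1. *Fkbp14*, an FKBP gene 1.08 Mb away on the opposite side of *Neurod6*, had a log2 fold change of -0.01 (adjusted p = 0.941). *Fkbp4* is also on chromosome 6, 72.7 Mb away. In the wild-type mice, *Fkbp9* was read on either side of a cut in the summed choroid plexus markers. The 7 *Fkbp5*lox/lox mice in which these markers summed to more than 500 CPM had 40.1 to 55.1 CPM of *Fkbp9*, and the other 5 had 32.4 to 40.0 CPM. The 2 ranges nearly touched. The cut of 500 CPM was not among the planned comparisons, and the share of all tested genes that split this way was not counted. The highest *Fkbp9* level of all mice was that of *Fkbp5*lox/lox control mouse 74, which also had the highest choroid plexus sum (4592 CPM). No such split was seen in *Fkbp5*Nex mice, with 34.9 to 39.7 CPM in 4 mice above 500 CPM of choroid plexus markers and 30.8 to 44.3 CPM in 8 mice below. Without mouse 74 the estimate for genotype was -0.148. The part of the *Neurod6* locus or of choroid plexus tissue in the *Fkbp9* values was not tested.

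Within each rearing condition the calls were again 0 of 8. Under control rearing, edgeR called 12 of all genes (0.074%), and 3 of 8 genes were at an unadjusted p below 0.05 against 8.78% of all genes. These were *Fkbp9* (log2 fold change -0.21, 95% interval -0.34 to -0.07, adjusted p = 0.31), *Fkbp3* (-0.13, -0.24 to -0.007, adjusted p = 0.548) and *Fkbp8* (0.07, 0.003 to 0.14, adjusted p = 0.559). They did not share a direction. After ELS, edgeR called 2 of all genes (0.0123%), and 0 of 8 genes reached an unadjusted p of 0.05 against 6.3% of all. There *Fkbp9* had a log2 fold change of -0.12 (95% interval -0.26 to 0.02, adjusted p = 0.798), *Fkbp3* of 0.05 (-0.07 to 0.18) and *Fkbp8* of 0.01 (-0.06 to 0.08). DESeq2 called 0 of 8 in both, and 53 and 4 of all genes. The comparison over both rearing conditions uses the same mice as these, so they are no independent repeat of it.

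**Figure D3:**
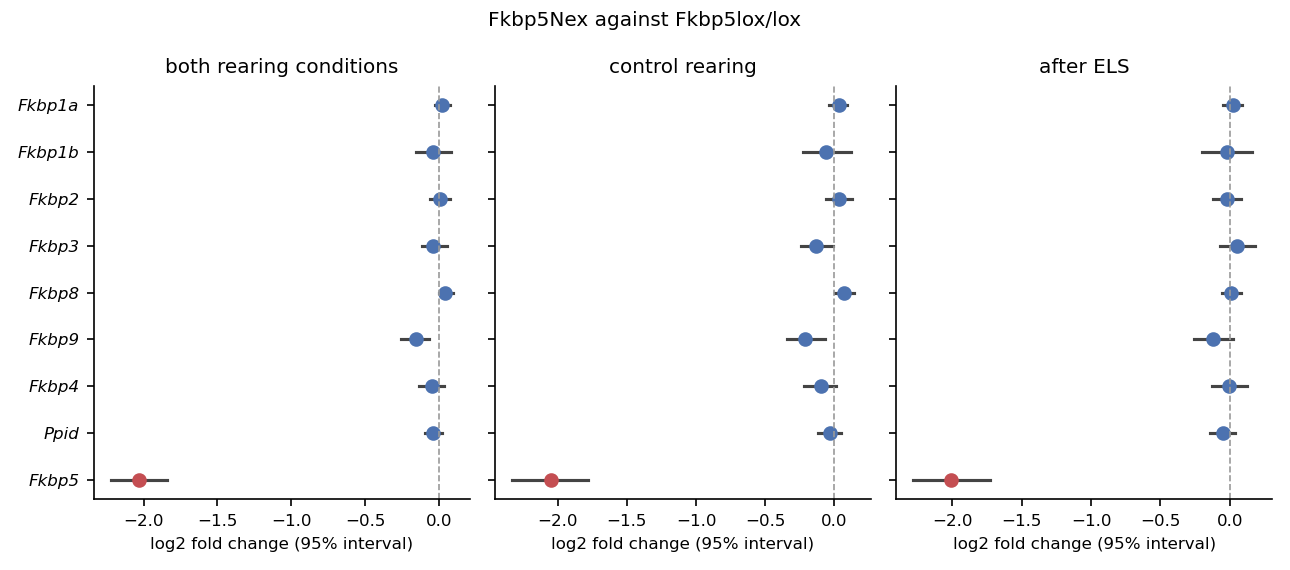
Log2 fold change of *Fkbp5*Nex against *Fkbp5*lox/lox with its 95% interval (edgeR) over both rearing conditions, under control rearing and after ELS. The 8 genes in blue lie between -0.21 and 0.07, and *Fkbp5* in red lies near -2.03.

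ELS gave no call either. Over both genotypes edgeR called 0% of all genes, and 0 of the 8 genes reached an unadjusted p of 0.05, against 3.53% of all. The estimates ran from -0.05 for *Fkbp9* to 0.09 for *Fkbp1b*, whose interval was -0.04 to 0.23. In *Fkbp5*lox/lox mice the shares were 0% called and 4.98% at an unadjusted p below 0.05 over all genes, with 0 of 8 in both. The farthest estimate from 0 was that of *Fkbp3*, with group means of 67.2 ± 4.71 CPM in control and 63.5 ± 2.88 CPM in ELS mice and a log2 fold change of -0.11 (95% interval -0.24 to 0.02, adjusted p = 0.938). In *Fkbp5*Nex mice the shares were 0% and 2.76%, again with 0 of 8, and *Fkbp3* averaged 63.7 ± 8.93 CPM in control and 66.9 ± 3.58 CPM in ELS mice (log2 fold change 0.07, 95% interval -0.06 to 0.19). The lowest *Fkbp3* value of all mice, 50.1 CPM, was that of *Fkbp5*Nex control mouse 12.

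The test of the difference between these ELS effects, the interaction, called 0% of all genes and 0 of the 8. *Fkbp3* was the 1 gene of the 8 with an unadjusted p below 0.05, against 3.95% of all genes. Its difference was -0.18 on the log2 scale (95% interval -0.35 to -0.006, adjusted p = 0.999). Without *Fkbp5*Nex control mice 12 and 52 it was -0.141. For *Fkbp9* the group means in control and ELS mice were 44.4 ± 6.24 and 38.4 ± 4.36 CPM in *Fkbp5*lox/lox and 38.8 ± 3.17 and 35.3 ± 3.34 CPM in *Fkbp5*Nex mice. The fit with surrogate variables, which model variation that many genes share, put the ELS effect at -0.05 (95% interval -0.15 to 0.06), and the fit without them at -0.171 (unadjusted p = 0.0109, adjusted p = 0.999). Within *Fkbp5*lox/lox mice the estimate was -0.09, and -0.208 without surrogate variables (unadjusted p = 0.0255, adjusted p = 0.999) and -0.147 with only these 12 mice fitted (unadjusted p = 0.0259, adjusted p = 0.724). Within *Fkbp5*Nex mice it was -0.004, and -0.134 (unadjusted p = 0.14) and -0.141 (unadjusted p = 0.0351, adjusted p = 0.911) in these fits, all by edgeR. DESeq2 called 0 of 8 genes in each of these ELS comparisons, and 1 of all genes for ELS in *Fkbp5*lox/lox and 0 in the others. The ELS comparisons share their mice with the genotype comparisons above.

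**Figure D4:**
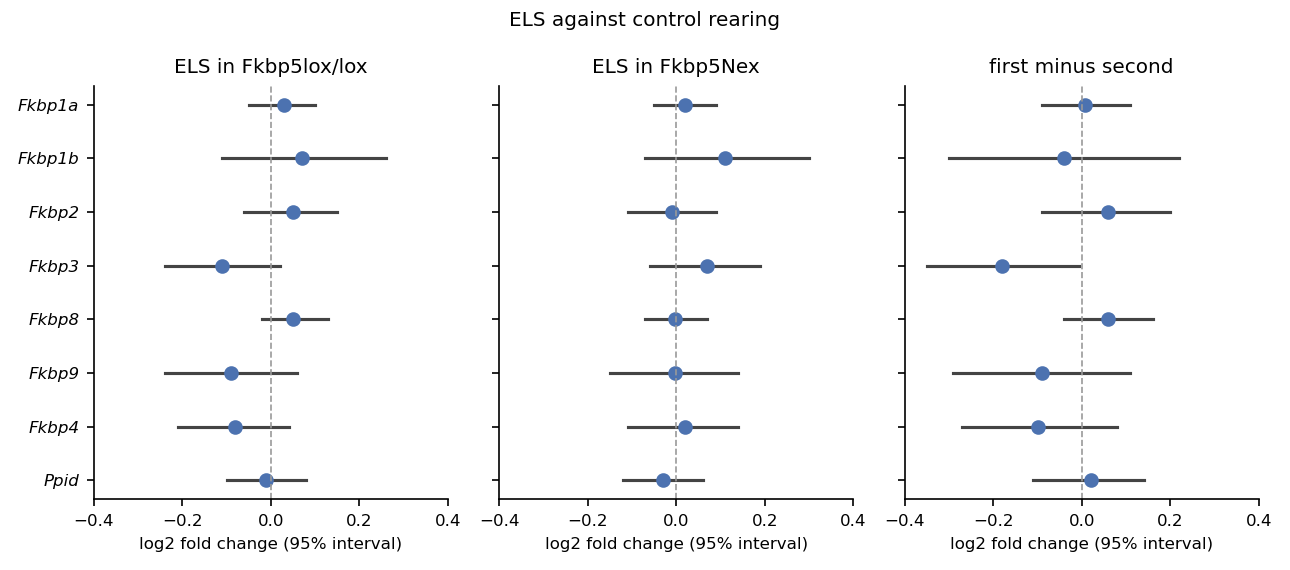
Log2 fold change of ELS against control rearing with its 95% interval (edgeR) in *Fkbp5*lox/lox and in *Fkbp5*Nex mice, and the difference between them. All 8 intervals include 0 in the first 2 panels, and in the third that of *Fkbp3* ends at -0.006.

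Some of the genes moved together from mouse to mouse. For each gene the deviation of its log2 CPM from the group mean was taken in all 24 mice. Of 28 pairs among the 8 genes, 23 correlated positively and 5 negatively, and the median Pearson r was 0.415. The same values over pairs of all tested genes were not computed, so these do not set the 8 genes apart. They also leaned on *Fkbp5*Nex control mouse 52. Without it r went from 0.573 to -0.134 for *Fkbp2* with *Fkbp4* and from 0.358 to -0.286 for *Fkbp4* with *Fkbp8*. For *Fkbp8* with *Fkbp9* it rose from 0.108 to 0.287. The closest pairs were *Fkbp1a* with *Fkbp8* (r = 0.892, Spearman rho = 0.804) and *Fkbp1a* with *Fkbp1b* (r = 0.874, rho = 0.872). Leaving out the 2 mice whose *Fkbp1a* lay farthest from its median, r was 0.799 and 0.839, and without *Fkbp5*Nex control mouse 52 it was 0.831 and 0.833. *Fkbp2* with *Fkbp3* was the third pair (r = 0.781, rho = 0.511). Its r was 0.660 without *Fkbp5*Nex control mouse 52. Once the 2 mice with the most extreme *Fkbp2* were left out it was 0.354, so its size depended much on those mice. All values in a mouse come from 1 library, and its depth and cell mixture are shared by the genes compared. These are descriptions of the 24 libraries and no test was run on them.

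*Fkbp4* did not follow *Fkbp1a* and *Fkbp1b*. With all mice, r was 0.179 and -0.001, and without *Fkbp5*Nex control mouse 52, the highest mouse for all 3 genes, it was -0.503 and -0.647. *Fkbp9* had r between -0.265 with *Fkbp3* and 0.108 with *Fkbp8*.

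**Figure D5:**
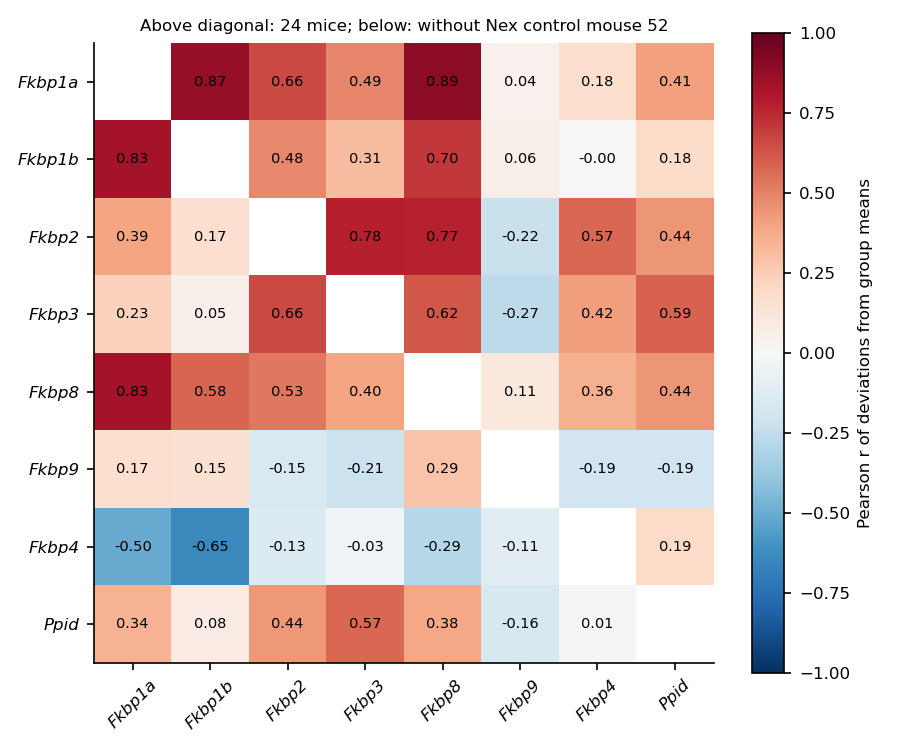
Pearson r between deviations from the group means for each pair of the 8 genes, over 24 mice above the diagonal and without *Fkbp5*Nex control mouse 52 below it (colour scale from -1 to 1). *Fkbp1a* with *Fkbp8* and *Fkbp1b* stays red on both sides, and *Fkbp4* with *Fkbp1a* and *Fkbp1b* turns blue below the diagonal.

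Promoter sequences were read for the genes that moved together. RefSeq promoters (GRCm38.p6) matched 7 of the 8 genes, *Ppid* being without an entry, and the 250 bases before the start are printed 5′ to 3′ on the gene's strand for *Fkbp1a* (chr2:151542233-151542482, plus), *Fkbp1b* (chr12:4841574-4841823, minus) and *Fkbp8* (chr8:70527493-70527742, plus). Capitals mark the GC box GGGCGG and the CCAAT box CCAAT on either strand.
Fkbp1a: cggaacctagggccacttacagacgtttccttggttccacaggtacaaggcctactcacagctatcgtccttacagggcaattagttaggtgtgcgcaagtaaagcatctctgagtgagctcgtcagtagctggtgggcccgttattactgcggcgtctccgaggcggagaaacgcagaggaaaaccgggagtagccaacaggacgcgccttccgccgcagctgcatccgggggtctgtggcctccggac
Fkbp1b: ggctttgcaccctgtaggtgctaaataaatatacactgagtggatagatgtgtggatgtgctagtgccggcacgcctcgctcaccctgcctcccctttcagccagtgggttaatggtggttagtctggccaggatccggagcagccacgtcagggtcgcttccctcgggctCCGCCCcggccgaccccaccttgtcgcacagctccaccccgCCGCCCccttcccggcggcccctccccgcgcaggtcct
Fkbp8: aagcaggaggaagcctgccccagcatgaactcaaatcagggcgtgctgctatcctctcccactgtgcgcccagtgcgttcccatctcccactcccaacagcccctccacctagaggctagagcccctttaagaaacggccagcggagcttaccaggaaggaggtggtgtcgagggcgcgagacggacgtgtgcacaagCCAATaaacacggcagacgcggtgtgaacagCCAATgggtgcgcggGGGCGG

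Neither box was common to all 3 windows that belong to the closest pairs. *Fkbp1a* held neither box, *Fkbp1b* held 2 GC boxes, and *Fkbp8* held 1 GC box and 2 CCAAT boxes. Of all 32851 promoter windows of this length, 32.7% held a GC box and 33.8% a CCAAT box. No TATA box (TATAAA, in 12.4% of all windows) was found in a window of the 7 genes, nor was the cyclic AMP response element TGACGTCA (1.55%). The heat shock element GAANNTTC occurred once in the window of *Fkbp4* and in none of the other genes' windows, against 6.69% of all windows. The glucocorticoid receptor's paired sites AGAACA and TGTTCT with 3 bases between them were in no window of these genes and in 3 of all 32851. A match is a description of letters in this window and not a binding site.

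Among all tested genes, those most like each of the 8 across the 24 mice differed from gene to gene. *Fkbp1a* was closest to *Cnrip1*, which encodes a cannabinoid receptor interacting protein (r = 0.920), *Fkbp8* and *Rab7* (r = 0.890). *Fkbp1b* was closest to *Jakmip1* (r = 0.892), *Fkbp1a* and the gene listed as RP23-449F12.8 (r = 0.842), and *Fkbp8* to *Asna1* (r = 0.928), *Myl12b* (r = 0.926) and *Cuedc2* (r = 0.916). For *Ppid* these were the constitutive heat shock protein gene *Hspa8* (r = 0.856), *Zc3h15* (r = 0.847) and *Ube2b* (r = 0.842). *Fkbp4* was closest to the ribosomal protein gene *Rpl9* (r = 0.809), *Sec11c* (r = 0.796) and *Gm1673* (r = 0.792). *Fkbp2* was closest to *Atp5h* and *Cnih1* (both r = 0.895) and *Puf60* (r = 0.892), and *Fkbp3* to *Commd5* (r = 0.903), the mitochondrial ribosome gene *Mrpl13* (r = 0.861) and *Rraga* (r = 0.845). *Fkbp9* had the least close neighbours, with *Hfe* (r = 0.789), *Pon3* (r = 0.787) and RP23-380L19.3 (r = 0.776).

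Relatives and partners outside the 8 genes were not called for genotype either, nor in any of the other comparisons. Of 9 other FKBP domain genes, 6 passed the filter and *Fkbp6*, *Fkbp11* and *Aipl1* did not. *Fkbpl*, *Fkbp15* and *Fkbp14* lay at 6.76, 6.36 and 5.35 RPKM, *Fkbp7* and *Fkbp10* at 1.89 and 1.68 RPKM, *Fkbp11* at 0.219 RPKM, and *Fkbp6* and *Aipl1* each at 0.0146 RPKM. Of the 6 tested, 2 had higher and 4 lower estimates in *Fkbp5*Nex (median log2 fold change -0.025). *Fkbpl*, which encodes a further protein of Hsp90 complexes, was the nearest to a call, at 9.40 ± 0.962 CPM in 12 *Fkbp5*lox/lox and 8.68 ± 0.914 CPM in 12 *Fkbp5*Nex mice (log2 fold change -0.18, 95% interval -0.29 to -0.06, adjusted p = 0.205). *Fkbp7* (0.17, adjusted p = 0.629) came next by p.

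All 18 other cyclophilins and parvulins were tested, with 0 called, 2 higher and 16 lower estimates and a median log2 fold change of -0.050, where 51% of all tested genes had lower estimates. The nearest to a call were *Nktr* (-0.05, adjusted p = 0.473), *Ppib*, the cyclophilin B gene (-0.06, adjusted p = 0.532), and *Ppic* (-0.18, adjusted p = 0.539). No gene of the list reached an unadjusted p of 0.05 for genotype. All 16 other Hsp90 co-chaperone genes were tested, with 0 called, 4 higher and 12 lower estimates and a median of -0.035. *Tomm70a*, an import receptor of the outer mitochondrial membrane, was the 1 gene at an unadjusted p below 0.05 (-0.07, adjusted p = 0.378), followed by the phosphatase gene *Ppp5c* (-0.05, adjusted p = 0.476) and the p23 gene *Ptges3* (-0.07, adjusted p = 0.485). Of 15 genes for channels, receptors, mTOR and calcineurin, the partners of FKBP12 or of its drug complexes, 14 were tested, with 0 called, 4 higher and 10 lower estimates and a median of -0.011. *Ryr1*, which encodes a ryanodine receptor, averaged 28.7 ± 12.1 CPM in *Fkbp5*lox/lox and 19.1 ± 4.64 CPM in *Fkbp5*Nex mice (-0.38, 95% interval -0.63 to -0.13, adjusted p = 0.202). The IP3 receptor gene *Itpr2* (0.16, adjusted p = 0.345) and the TGF-beta receptor gene *Tgfbr1* (-0.12, adjusted p = 0.35) also had an unadjusted p below 0.05. The 3 of 14 genes here, 1 of 16 co-chaperones, 0 of 18 cyclophilins and parvulins and 1 of 6 FKBP domain genes at this level stand against 11.4% of all tested genes.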

How the data were processed

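RNA from hippocampal punches of 24 female mice was sequenced by a commercial provider. The deposited values are raw counts of reads by gene, which the authors made by removing poor reads, aligning with HISAT2 2.0.5 and counting with featureCounts 1.5.0-p3. The genome build, annotation and strand setting are not given in the sources used here. Groups came from the sample labels, which give no batch. Totals ranged from 18347283 to 26555623 counts per mouse, and the lowest count of any of the 8 genes in a mouse was 420. Each column is 1 mouse, and p-values measure the spread between mice. ELS was given to whole litters, and the labels give no litter. Mice of the same litter were therefore counted as separate, which bears most on the ELS and interaction comparisons.

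All other values were computed here. Kept were genes that had 10 counts or more in all mice of some group (16209 of 46983). edgeR 4.0.16 (R 4.3.3) fitted 4 group means and 5 surrogate variables (sva 3.50.0) to TMM-scaled counts, with quasi-likelihood tests, Benjamini-Hochberg adjustment over all tested genes and an FDR of 2%. The fit was tested on simulated data with known changes. These data held no variation shared by many genes, and their changes were larger than the estimates for the 8 genes. The test therefore does not bear on the surrogate variables or on small changes. CPM were TMM-scaled and not adjusted for the surrogate variables, and RPKM used exon lengths of GENCODE vM21 (GRCm38). Correlations used TMM-scaled log2 CPM with a prior count of 2. Alternatives were DESeq2 1.42.0, other scaling and filters, no surrogate variables, an FDR of 5%, only the mice compared, and each mouse left out in turn. Named were all 8 genes, *Fkbp5*, the 3 genes of each list with the smallest p for genotype together with any gene called, the other FKBP domain genes by level, and the 3 genes most like each member. The genes and lists were chosen with earlier results of these data known. The values of 1 gene of these lists are not reported here.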

Additional observations from a re-analysis of the deposited data

Results flagged for a closer look

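Of 32 sets of values, 8 genes in 4 groups of 6 mice, 5 held a mouse whose gap to the nearest value passed Dixon's 95% limit, where chance gives about 1 in 20. *Fkbp5*Nex control mouse 52 was the highest of its group for *Fkbp1a* (881 CPM, nearest 726), *Fkbp4* (125 CPM, nearest 96.8) and *Fkbp8* (370 CPM, nearest 295). It was also the highest of all 24 mice for 6 of the 8 genes and for 16.9% of all tested genes. *Fkbp5*lox/lox control mouse 44 was the lowest of its group for *Fkbp8* (230 CPM, nearest 276), and *Fkbp5*Nex ELS mouse 60 for *Ppid* (97.1 CPM, nearest 111).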

How the results depend on the processing

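In the 7 comparisons, edgeR called 0 of the 8 genes under each alternative, including an FDR of 5% and each of the 24 mice left out in turn. DESeq2, run once on all mice with the surrogate variables, also called 0. The counts over all genes moved more, and the cause was not tested. For genotype 22 genes were called, and 3 without surrogate variables, 11 with filterByExpr, 66 by DESeq2, 47 at an FDR of 5% and 2 without both *Fkbp5*Nex control mice 12 and 52. With single mice left out the count was 6 to 35. It moved by over 1.5 times without *Fkbp5*lox/lox control mice 74 (6), 44 (8), 28 (10) or 34 (13), *Fkbp5*Nex control mice 12 (7) or 54 (35), *Fkbp5*Nex ELS mouse 38 (14) or *Fkbp5*lox/lox ELS mouse 72 (14). Under control rearing 12 became 2, 3, 53, 30 and 1 under the same alternatives, 7 with no filter and 1 with only the 12 mice compared. After ELS 2 became 4 by DESeq2, and for ELS in *Fkbp5*lox/lox 0 became 1 by DESeq2.

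Several estimates changed sign, not all of them near 0, since that of *Fkbp4* for the interaction was -0.10 with surrogate variables. Without surrogate variables these were, for genotype, *Fkbp1b* (0.033), after ELS *Fkbp1b* (0.07) and *Fkbp2* (0.015), for ELS *Fkbp1a* (-0.033), *Fkbp2* (-0.014) and *Fkbp8* (-0.026), for ELS in *Fkbp5*lox/lox *Fkbp1a* (-0.028) and *Fkbp1b* (-0.027), for ELS in *Fkbp5*Nex *Fkbp1a* (-0.038) and *Fkbp4* (-0.049), and for the interaction *Fkbp4* (0.035) and *Ppid* (-0.018). With filterByExpr they were *Fkbp2* for genotype (-0.019), *Fkbp1a* under control rearing (-0.024), *Fkbp1b* after ELS (0.044), *Fkbp1a* (-0.027) and *Fkbp1b* (-0.035) for ELS in *Fkbp5*lox/lox, *Fkbp2* (0.007) and *Fkbp8* (0.016) for ELS in *Fkbp5*Nex, and *Fkbp1a* (-0.075), *Fkbp8* (-0.006) and *Ppid* (-0.017) for the interaction. With no filter they were *Fkbp2* for genotype (-0.016), *Fkbp1b* after ELS (0.012), *Fkbp2* (0.01) and *Fkbp8* (0.005) for ELS in *Fkbp5*Nex and *Fkbp1a* for the interaction (-0.02). With only the 12 mice compared it was *Fkbp2* for ELS in *Fkbp5*Nex (0.007). Without *Fkbp5*Nex control mice 12 and 52, an alternative chosen after seeing the data, they were *Fkbp1a* (-0.013) and *Fkbp3* (0.02) for genotype, *Fkbp1a* under control rearing (-0.016) and after ELS (-0.01), *Fkbp4* for ELS (0), *Fkbp8* for ELS in *Fkbp5*Nex (0.001), and *Fkbp1a* (-0.005) and *Ppid* (-0.014) for the interaction. With single mice left out, the genotype estimate ran from -0.013 to 0.052 for *Fkbp1a*, -0.118 to 0.006 for *Fkbp1b*, -0.011 to 0.039 for *Fkbp2* and -0.065 to 0.018 for *Fkbp3*, and it kept its sign for *Fkbp4*, *Fkbp8*, *Fkbp9* and *Ppid*.

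No paired analysis was possible because the labels give no litter. The paper describes the genotypes as littermates and the assignment of whole litters to ELS or control rearing. Which mice shared a litter is unknown here and was not modelled. Punches mix cell types, so a change confined to the neurons that lost *Fkbp5* is diluted by other cells. RNA levels say nothing of protein. The lowest count of these genes in any mouse was 420.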
